A study of Homo sapiens with 36 samples.

Results

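MDA-MB-231 cells that overexpressed the isoleucine tRNA with the UAU anticodon differed from control cells in how mRNAs were divided between heavy polysomes and total RNA. Each condition was a single line, so the tRNA and other differences between lines cannot be told apart. The quantity described is the log2 ratio of the high-translating fraction to total RNA in UAU cells minus the same ratio in control cells, called the ratio change below. It was fitted as an interaction on raw counts over 12 of the 36 libraries of the series: high fraction and total RNA of both lines, with 3 libraries in each of 4 groups. MDA-MB-231 is an established human triple-negative breast cancer line of mesenchymal type, and the cells were grown in dishes. UAU cells carried CRISPR interference directed at eGFP and the construct that overexpresses tRNA-Ile-UAU (UAU high fraction, n = 3, and UAU total RNA, n = 3). Control cells carried CRISPR interference directed at eGFP and a control overexpression construct (control high fraction, n = 3, and control total RNA, n = 3). Both lines thus carried a CRISPR interference system, and both received 100 ug/mL cycloheximide for 5 minutes before they were frozen, which holds ribosomes on mRNA. The high fraction held the heavier polysomes, and the low fraction the monosome and first polysome peaks. Libraries were made from 500 ng RNA with a kit that reads the 3' ends of polyadenylated RNA. Whether replicates A, B and C came from separate cultures is not stated in the labels, and the p-values therefore reflect the spread among these libraries, which may be technical.

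Ribosomes translating an mRNA sediment with it, so an mRNA that carries many ribosomes is found in heavy polysomes, and its share there relative to total RNA reads its loading. Long reading frames hold more ribosomes at the same initiation rate than short ones. The tRNA with the UAU anticodon reads the isoleucine codon AUA, while the GAU form studied elsewhere in the series serves other isoleucine codons. Many mRNAs of the translation machinery start with a cytosine followed by a run of pyrimidines, the terminal oligopyrimidine (TOP) motif, through which their translation responds to mTORC1 and LARP1.

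The first bases of 7 TOP-list mRNAs are shown because members of that class moved in opposite directions. Each window runs from 10 bases before to 20 bases after the RefSeq gene start in GRCh38.p14, 5′ to 3′ on the gene's strand, and capitals mark the pyrimidine run at the start. RPS12 (chr6:132814559-132814588, plus strand), RPL22 (chr1:6199576-6199605, minus), RPL37A (chr2:216498834-216498863, plus) and RPS18 (chr6:33272065-33272094, plus) had a higher ratio in UAU cells. GNB2L1, the ribosomal scaffold RACK1 (chr5:181243887-181243916, minus), NAP1L1 (chr12:76084666-76084695, minus) and EEF1A1 (chr6:73521013-73521042, minus) had a lower one.
RPS12: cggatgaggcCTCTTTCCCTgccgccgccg
RPL22: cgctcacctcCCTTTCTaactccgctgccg
RPL37A: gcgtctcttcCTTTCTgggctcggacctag
RPS18: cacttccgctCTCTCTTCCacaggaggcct
GNB2L1: gcttttctctCTCTCTTTCactgcaaggcg
NAP1L1: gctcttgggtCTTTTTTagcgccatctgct
EEF1A1: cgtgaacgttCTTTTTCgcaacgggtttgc
The 7 are only some of the list members with a run that begins with C, picked to show both directions. Such a run was found in 19 small subunit, 28 large subunit and 11 other TOP-list members. The rises shown are all ribosomal protein mRNAs, and the falls are all from the list of elongation factors and other TOP mRNAs. A run of C and at least 4 more pyrimidines stood at the start of 1007 of 22180 coding start windows, or 4.54%. Among tested genes, 713 had it, with a median ratio change of -0.00408 and 9.54% higher and 6.59% lower. The 8763 without it had a median of -0.00826, with 5.8% higher and 6.6% lower. These sets were not matched for level, and called shares grew with level, as given below.

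The 12 libraries held 5192464 to 8974001 counts each. Cell identity was checked on markers: VIM, CD44, S100A4, ANXA1 and AXL summed to 4855 to 5543 CPM in UAU total RNA and 4487 to 4693 CPM in control total RNA. ESR1, PGR and CDH1 did not pass the filter on low counts, and the list of other breast epithelial markers, KRT8 and KRT18 included, summed to 520.4 to 551 CPM in UAU and 557 to 593 CPM in control total RNA. Fibroblast markers summed to at most 2.43 CPM and endothelial markers to at most 5.01 CPM in any total RNA library. In the high fraction, leukocyte markers summed to 8.44 to 10.2 CPM in UAU and 12.8 to 15.1 CPM in control libraries. Among the replicates, UAU high library C stood apart from the others of its group, by a chi-square of the counts, divided by its degrees of freedom, of 8.49 against A and 5.05 against B, while A and B gave 2.39. Levels are CPM, counts as a rate of the TMM-scaled library total, and are relative within a library: fewer cells and less RNA per cell cannot be told apart.

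Of 12277 genes tested, 1447 (11.8%) had a changed ratio at an adjusted p under 0.05 in edgeR's quasi-likelihood test, 711 higher (5.79%) and 736 lower (5.99%) in UAU cells. The changes were small: the median size among called genes was 0.53 on the log2 scale, and 18 genes rose and 35 fell by at least 2-fold. The median over all tested genes was 0.00311. Without UAU high library C the count was 2278, and without UAU total library C it was 931. With library totals in place of TMM factors, the median of all genes moved to -0.118 and the split to 326 higher and 1522 lower, so changes are given relative to the bulk of mRNAs. In 908 genes (7.4%) every choice of libraries gave a higher ratio in UAU cells and in 854 (6.96%) a lower one, and 607 and 593 of these were also called.

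More genes differed in the high fraction than in total RNA. In the same fit, 3713 genes (30.2%) differed between UAU and control high fractions, 1674 higher (13.6%) and 2039 lower (16.6%). In total RNA 399 genes (3.25%) differed, 120 higher (0.977%) and 279 lower (2.27%). When each was fitted on its own 6 libraries, the gap was smaller, with 3106 genes for the high fraction and 916 for total RNA. The ratio of low fraction to total RNA gave no call (0%) among 12548 genes in edgeR, with 959 at an unadjusted p under 0.05, while DESeq2 called 9. Without control low library B, edgeR called 14 genes there. These comparisons share libraries, so they are set side by side only.

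Among the mRNAs that rose most were those of small proteins of the ribosome, the spliceosome and the respiratory chain. RPS12 encodes a protein of the small ribosomal subunit and lies at chr6:132814569-132817564 of GRCh38.p14, where its introns hold snoRNA genes. It had 2148, 2076 and 2145 CPM in UAU high libraries and 3737, 3571 and 3229 CPM in UAU total RNA. In control cells it had 1379, 1317 and 1548 CPM in high libraries and 4268, 4389 and 4453 CPM in total RNA. Every UAU high value lay above every control high value, and every UAU total value below every control total value. The ratio change was 0.90 ± 0.101 (SE, adjusted p = 1.96e-06), made of 0.59 in the high fraction and -0.32 in total RNA.

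SNRPG, a core Sm protein of spliceosomal snRNPs (chr2:70281362-70293740), had 249, 259 and 265 CPM in UAU high libraries against 157, 161 and 179 CPM in control high libraries. Its total RNA held 213, 228 and 202 CPM in UAU cells against 272, 277 and 270.1 CPM in control cells. Neither pair of groups overlapped, and the ratio change was 0.99 ± 0.106 (SE, adjusted p = 1.77e-06). NDUFA1, an accessory subunit of respiratory complex I (chrX:119871832-119876662), had 497, 462 and 506 CPM in UAU high libraries against 309, 296 and 305 CPM in control high libraries. Its UAU total RNA held 247, 266 and 232 CPM against 304, 284 and 288 CPM in control total RNA. The high fraction was higher in all UAU libraries and total RNA lower in all of them, with a ratio change of 0.92 ± 0.104 (SE, adjusted p = 1.96e-06). COX6C, a small subunit of cytochrome c oxidase on chromosome 8, had 923, 871 and 943 CPM in UAU high libraries against 555, 530.3 and 545 CPM in control high libraries. Its total RNA held 586, 624 and 581 CPM in UAU cells against 667, 636 and 649.8 CPM in control cells. Its ratio change was 0.87 ± 0.0967 (SE, adjusted p = 1.96e-06), and its total RNA alone did not pass (adjusted p = 0.346).

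**Figure D1:**
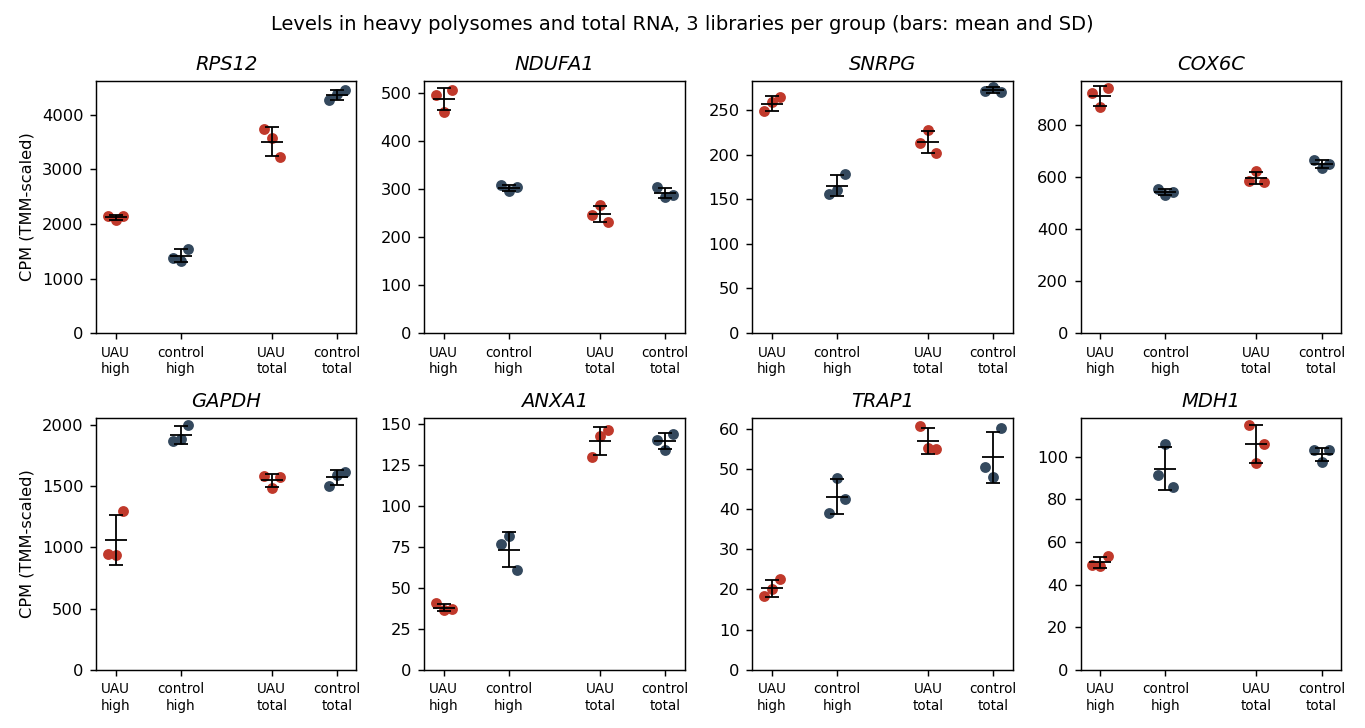
CPM (TMM-scaled) of 8 genes in each library of the high fraction and total RNA, with UAU libraries in red and control libraries in dark blue, and the mean and SD of 3 libraries as bars. RPS12, NDUFA1, SNRPG and COX6C are higher in every UAU high library than in any control high library, and GAPDH, ANXA1, TRAP1 and MDH1 lower.

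The other genes ranked highest were GDF9 (1.35), PET100 (1.19), DYNLL2 (1.03), DPY30 (0.96), SNHG19 (0.95), SMIM4 (0.95), TMEM186 (0.93) and ATP5I (0.88), as log2 ratio changes. GDF9 overlaps UQCRQ, a complex III subunit whose own ratio change was 0.59, and PET100, an assembly factor of cytochrome c oxidase, overlaps STXBP2. Since the strand setting of the counting is not given in the sources used here, reads of such pairs cannot be told apart. DPY30 is a subunit of histone H3 lysine 4 methyltransferase complexes, DYNLL2 a dynein light chain and ATP5I a subunit of ATP synthase.

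TRAP1 and MDH1, among the genes whose ratio fell most, had less signal in heavy polysomes and total RNA that overlapped between the lines. TRAP1, a mitochondrial HSP90 chaperone (chr16:3658037-3717524), had 18.3, 20.02 and 22.5 CPM in UAU high libraries against 38.9, 47.6 and 42.6 CPM in control high libraries. Its total RNA held 60.6, 55.1 and 54.9 CPM in UAU cells against 50.4, 48.1 and 60.1 CPM in control cells. The high fractions did not overlap and total RNA did, with a ratio change of -1.19 ± 0.156 (SE, adjusted p = 1.46e-05). TRAP1 overlaps DNASE1 (-0.99), and reads of the pair are uncertain.

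MDH1, cytosolic malate dehydrogenase (chr2:63588963-63607197), had 49.0, 48.8 and 53.4 CPM in UAU high libraries against 91.6, 106 and 85.9 CPM in control high libraries. Its total RNA held 115, 97.3 and 106 CPM in UAU cells against 103, 97.7 and 103 CPM in control cells. High fractions stood apart and total RNA overlapped, with a ratio change of -0.97 ± 0.127 (SE, adjusted p = 1.45e-05). Other genes ranked among the lowest were CAP2 (-1.07), ANXA2P3 (-1.05), DSG2 (-1.03), ALDH6A1 (-0.99), ANXA1 (-0.95), DRG2 (-0.94), CPNE8 (-0.94) and ABCD3 (-0.93). CAP2 regulates actin turnover, DSG2 is a desmosomal cadherin, ALDH6A1 acts in valine breakdown and ABCD3 is a peroxisomal transporter. ANXA2P3 is a pseudogene of ANXA2, so its reads are uncertain.

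Gene lists were read against the shares over all genes, 5.79% higher and 5.99% lower. Called shares grew with level: with tested genes in 5 bins of equal size by level, 18% were higher and 12.1% lower in the top bin, and 0.367% and 0.733% in the lowest bin. Of 32 small ribosomal subunit proteins, 16 rose and 0 fell, with a median of 0.29. Of 48 large subunit proteins, 17 rose and 2 fell, with a median of 0.26. Small-subunit mRNAs summed to 86202 to 93664 CPM in UAU high libraries and 74973 to 81512 CPM in control high libraries. In total RNA they summed to 64842 to 67812 CPM in UAU cells and 68957 to 72477 CPM in control cells. After RPS12, RPS15A (0.56), RPS27 (0.55) and RPS18 (0.52) rose most on the small subunit, and RPL22 (0.85), RPL37A (0.60), RPL31 (0.53) and RPL36 (0.53) on the large one. RPL5 (-0.50) and RPL4 (-0.47) fell.

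Lists of other translation factors had more called falls than rises. Of 20 elongation factors and other mRNAs with TOP starts, 1 rose and 8 fell, with a median of -0.27. EIF3E (-0.73), EIF3H (-0.53), GNB2L1 (-0.62), EEF1A1 (-0.45) and EEF1G (-0.41) fell, and the snoRNA host GAS5 (0.66) rose. Of 33 initiation and termination factors 0 rose and 11 fell, with a median of -0.06, among them EIF2B2 (-0.66), EIF3B (-0.62) and EIF2S1 (-0.57). Of 23 cytosolic aminoacyl-tRNA synthetases and cofactors, 1 rose and 6 fell, with a median of -0.30. FARSA (-0.78) and DARS (-0.73), which charge phenylalanine and aspartate tRNAs, fell, and EEF1E1 (0.42), a scaffold protein of the synthetase complex, rose. Leaving out 1 library gave 4 to 12 falls, 12 of them without UAU high library C, and library totals gave 0 rises and 12 falls. The synthetases that charge isoleucine tRNAs did not pass: IARS gave -0.33 (adjusted p = 0.18) and the mitochondrial IARS2 -0.36 (adjusted p = 0.112). Of 39 tRNA modification and processing genes 5 rose and 2 fell, with a median of -0.04, and with library totals 2 rose and 7 fell. ADAT2, a subunit of the deaminase that makes inosine in tRNA anticodons, rose by 1.05 at 12.8 CPM in UAU and 7.18 CPM in control high fractions, and NSUN2, a tRNA cytosine methyltransferase, gave -0.54.

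Respiratory chain and mitochondrial mRNAs encoded in the nucleus rose more often than they fell with TMM scaling. With library totals the excess of rises shrank to 7 against 3 falls for complex I, 12 against 7 for complexes II to V and 7 against 4 for import and assembly factors, and mitochondrial ribosomal proteins had 8 of each. Of 38 complex I subunits and factors 16 rose and 1 fell, with a median of 0.31. NDUFB1 (0.80), NDUFB2 (0.73) and NDUFS6 (0.62) followed NDUFA1, and NDUFA9 (-0.48) fell. Of 38 subunits of complexes II to V, 17 rose and 4 fell, with a median of 0.28. ATP5L (0.86) and COX7A2 (0.71) rose, while ATP5B (-0.63) and ATP5A1 (-0.50), the catalytic-core subunits of ATP synthase, and UQCRC2 (-0.64), a core subunit of complex III, fell. Of 75 mitochondrial ribosomal proteins 23 rose and 4 fell, with a median of 0.23, led by MRPL33 (0.78) and MRPL20 (0.67). Of 31 import and assembly factors 13 rose and 2 fell, with a median of 0.31, among them COX14 (0.68), TOMM7 (0.67) and HSPE1 (0.57). TOMM70A (-0.45) and TIMM44 (-0.46) fell. Sm and LSm proteins, which form rings on spliceosomal and decay-linked RNAs, had 10 rises and 1 fall of 19, with a median of 0.40. SNRPF (0.79) and LSM2 (0.56) rose and SNRPA (-0.68) fell.

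Glycolytic enzymes had the lowest median of the 36 gene lists, -0.50, with 0 rises and 10 falls of 20. GAPDH (chr12:6534517-6538371) had 945, 936 and 1299 CPM in UAU high libraries against 1869, 1881 and 2001 CPM in control high libraries. Its mean total RNA was 1546 ± 51.4 CPM in UAU cells and 1571 ± 59.5 CPM in control cells (SD, n = 3 each). High fractions did not overlap, UAU library C lying nearest to control, and the ratio change was -0.83 ± 0.125 (SE, adjusted p = 9.87e-05). ENO1 (-0.76), PKM (-0.74), PFKL (-0.74) and LDHB (-0.72) also fell. The list summed to 3871 to 5123 CPM in UAU high libraries and 6442 to 6479 CPM in control high libraries.

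Proteasome, endoplasmic reticulum chaperone and heat shock lists had more called falls than rises. Of 41 proteasome subunits 1 rose and 10 fell, with a median of -0.25: PSMD12 (-0.92), PSMC2 (-0.79) and PSMC4 (-0.72) fell and PSMD9 (0.55) rose. Without UAU high library C, 25 proteasome subunits fell. Of 23 endoplasmic reticulum chaperones 1 rose and 8 fell, with a median of -0.29; PDIA4 (-0.64), PDIA3 (-0.61) and CALR (-0.60) fell and FKBP2 (0.55) rose. Of 19 cytosolic heat shock genes 0 rose and 6 fell, with a median of -0.19, led by STIP1 (-0.77). Of 20 chaperonin, prefoldin and tubulin genes 4 rose, 8 fell and 8 were not called, with a median of -0.14. The called members divided by complex. The CCT chaperonin subunits CCT2, CCT3, CCT4, CCT5, CCT6A and CCT7 fell, CCT5 most (-0.72), as did TUBB (-0.61) and TUBB4B (-0.54). The 4 that rose were all prefoldin subunits, PFDN2 (0.58), PFDN1 (0.56), PFDN5 (0.43) and PFDN4 (0.42). Of 31 translocon and signal recognition genes 9 rose and 5 fell, with a median of 0.16: SEC61G (0.76) and SEC11C (0.68) rose, RPN2 (-0.66) and SRP68 (-0.62) fell. With library totals that list had 5 rises and 9 falls.

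Mitotic and DNA replication genes were called lower more often than higher, though most were not called. Of 36 mitotic genes 1 rose and 9 fell, with a median of -0.29, among them BUB1B (-0.76), BUB1 (-0.63), NUSAP1 (-0.62) and CDC20 (-0.61), while CKS1B (0.60), a small regulatory partner of cyclin-dependent kinases, rose. Of 38 DNA replication genes 1 rose and 9 fell, with a median of -0.24: MCM5 (-0.89), RRM2 (-0.81) and PCNA (-0.63) fell, and RPA3 (0.63), the small subunit of the single-strand binding complex, rose. These counts rested on single libraries: without UAU high library C there were 6 rises and 14 falls among mitotic genes and 3 and 15 among replication genes, and without control high library A there were 5 and 4 falls. With library totals in place of TMM factors, 17 genes fell in each list. Of 11 replication-dependent histones 2 rose and 0 fell, with a median of 0.35; leaving out 1 library gave 0 to 3 rises, and HIST1H4C lost its call in 12 of 20 alternatives and HIST1H3A in 5 of 18.

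Of 17 S100 and annexin genes 5 rose, 5 fell and 7 were not called. The median was -0.25 and ran from -0.371 to 0.0394 over the alternatives. The called members of the list split by family. Its 5 rises were all S100 calcium-binding proteins, S100A13 (0.62), S100A2 (0.59), S100A6 (0.57), S100A4 (0.53) and S100A10 (0.42). Its 5 falls were all annexins, ANXA1 (-0.95), ANXA5 (-0.80), ANXA2 (-0.65), ANXA7 (-0.56) and ANXA3 (-0.51). ANXA1, a membrane-binding protein (chr9:73151865-73170393), had 40.6, 36.4 and 36.8 CPM in UAU high libraries against 76.6, 81.7 and 61.0 CPM in control high libraries. Its mean total RNA was 139 ± 8.52 CPM in UAU cells and 139 ± 4.89 CPM in control cells (SD, n = 3 each), so the fall lay in the high fraction. S100A4, linked to cell motility (chr1:153543621-153545806), had 2014, 1813 and 2011 CPM in UAU high libraries against 1302, 1243 and 1388 CPM in control high libraries. Its total RNA overlapped, at 950.4, 797 and 880.4 CPM in UAU cells against 871, 865 and 826 CPM in control cells. Its ratio change of 0.53 ± 0.105 (SE) had an adjusted p of 0.00157.

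Of 24 mesenchymal and invasion genes 1 rose and 5 fell, with a median of -0.30: the intermediate filament VIM (-0.72) and the hyaluronan receptor CD44 (-0.67) fell and the protease inhibitor TIMP2 (0.44) rose. Among 32 actin genes 4 rose and 6 fell, with TMSB4X (0.66), an actin monomer binder, highest and the bundling protein FSCN1 (-0.88) lowest. Of 29 snoRNA hosts and other long non-coding RNAs 10 rose and 0 fell, with a median of 0.19. SNHG19 (0.95), SNHG6 (0.77), GAS5 (0.66), MALAT1 (0.65) and SNHG5 (0.61) rose. The list summed to 2704 to 3368 CPM in UAU high libraries and 2550 to 2732 CPM in control high libraries. In total RNA it summed to 7201 to 7602 CPM in UAU cells and 8081 to 8298 CPM in control cells. These RNAs are mostly not translated into known proteins, and the part that unbound RNA in the heavy fraction has in the result was not tested. MALAT1 overlaps its antisense TALAM1, so its reads are uncertain.

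**Figure D2:**
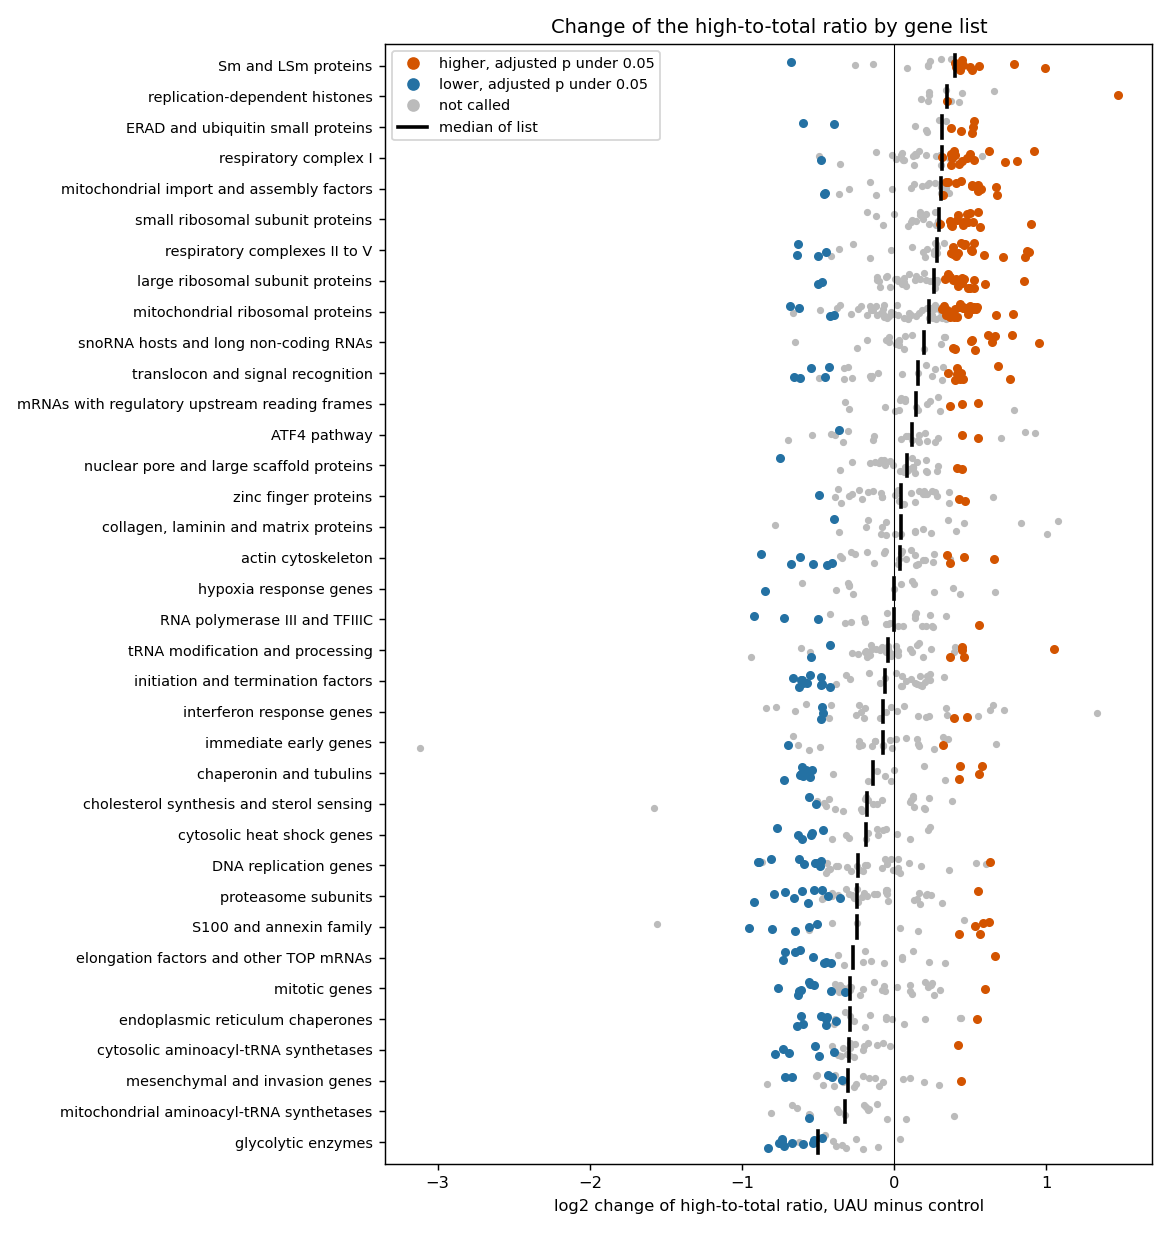
Log2 ratio change (UAU minus control) of each tested member of 36 gene lists, with called rises in orange, called falls in blue, genes not called in grey and the list median as a black bar. Sm and LSm proteins have the highest median (0.40) and glycolytic enzymes the lowest (-0.50).

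The remaining lists had few calls or mixed directions. Cholesterol synthesis genes had 0 rises and 2 falls of 26, FDFT1 (-0.56) and CYP51A1 (-0.51), with a median of -0.18. INSIG1, which retains the sterol sensor SCAP in the endoplasmic reticulum, had 166, 161 and 146 CPM in UAU high libraries against 333, 352 and 359 CPM in control high libraries. Its total RNA held 132, 124 and 123 CPM in UAU cells against 299.97, 290.1 and 306 CPM in control cells. Both fell by a like amount, -1.14 in the high fraction and -1.24 in total RNA, and the ratio change of 0.10 ± 0.106 (SE) did not pass (adjusted p = 0.6). Of 25 ATF4 pathway genes 2 rose and 1 fell: ATF4 (0.45) and ATF5 (0.55), both with regulatory upstream reading frames, rose and SHMT2 (-0.37) fell. ATF4 lost its call in 9 of 20 alternatives, library totals and the 24-library fit among them, and SHMT2 in 5, while ATF5 kept it in all 20. The ATF5 change came from total RNA, at -0.61, while its high fraction gave -0.06 (adjusted p = 0.692). Of 19 mRNAs with regulatory upstream reading frames 3 rose and 0 fell, with a median of 0.14. Library totals gave 1 rise and 2 falls there, and leaving out 1 library gave 1 to 5 rises and 0 to 1 falls. Of 12 small ubiquitin-like and degradation-linked genes 5 rose and 2 fell, with a median of 0.32. Of 17 mitochondrial aminoacyl-tRNA synthetases only RARS2 (-0.56) passed, and it lost its call in 12 of 20 alternatives; the list median was -0.32. Of 24 RNA polymerase III and TFIIIC genes 1 rose and 3 fell. Interferon response, immediate early, hypoxia response, matrix, zinc finger and large scaffold lists had at most 3 calls in either direction each. Medians of the ATF4 pathway, actin, matrix, zinc finger, hypoxia response and large scaffold lists changed sign with library totals in place of TMM factors.

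Position on the gradient was taken from GAUi cells, whose libraries are not in the fit, as log2 high over low fraction. With genes in 5 bins of equal size, the bin lightest there had a median ratio change of 0.10, with 7.13% higher and 1.56% lower. The heaviest bin had -0.02, with 6.83% higher and 8.56% lower. The difference between these medians was -0.12, and -0.169 between the outer bins when 10 bins were used. The SD between single libraries of the like difference in bin means, combined over the 4 groups, was 0.179. That SD is for single libraries, while the medians rest on 3 libraries a group. It therefore does not show whether the difference exceeds the spread. Over 11857 genes Spearman's rho was -0.12, as a description across genes, which are not independent replicates.

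The same tRNA was also overexpressed in cells whose CRISPR interference was directed at the isoleucine GAU tRNA. There the line with both changes, called isoswitch, is set against GAUi cells with the control construct, and the 12 libraries are all different from those above. Of 12199 genes 330 (2.71%) had a changed ratio, 182 higher (1.49%) and 148 lower (1.21%). That count depended on single libraries: it was 1464 without GAUi total library A and 0 without isoswitch total library C. The 3 GAUi total libraries were spread, the same chi-square measure running from 8.01 to 22.3 between pairs.

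Ratio changes in the 2 backgrounds mostly had opposite signs. Over 12070 genes Pearson's r was -0.41 and Spearman's rho -0.47, as descriptions across genes. Of 1445 genes called in eGFP cells and tested in both, 1348 (93.3%) had the opposite sign in GAUi cells, against 68.9% of all genes. The 187 genes called in both, 12.9% of the calls in eGFP cells and 56.7% of those in GAUi cells, all had opposite signs. A test of the difference itself over 24 libraries called 2411 of 12540 genes (19.2%), 1162 higher (9.27%) and 1249 lower (9.96%). Among them were 1237 of those called in eGFP cells. The ratio change in eGFP cells is itself part of the difference, so that overlap is no separate support. The examples that follow were picked for opposite signs, while 97 of the 1445 genes had the same sign. ANXA1 gave -0.95 in eGFP cells and 1.12 in GAUi cells, PKM -0.74 and 1.06, TRIAP1 0.87 and -0.99, and MRPL33 0.78 and -1.01. SF3B4, a splicing factor, gave -0.93 and 0.97, and PPP2R1A, the scaffold of phosphatase 2A, -0.75 and 1.14. Other named genes differed between isoswitch and GAUi cells with little change in eGFP cells. The log2 high-to-total ratio of TERC was -5 in isoswitch and -3.07 in GAUi cells, and -4.33 in UAU and -4.4 in control cells. For PLCG1-AS1 it was -1.14 in isoswitch and -2.24 in GAUi cells, and -1.58 in UAU and -1.64 in control cells.

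**Figure D3:**
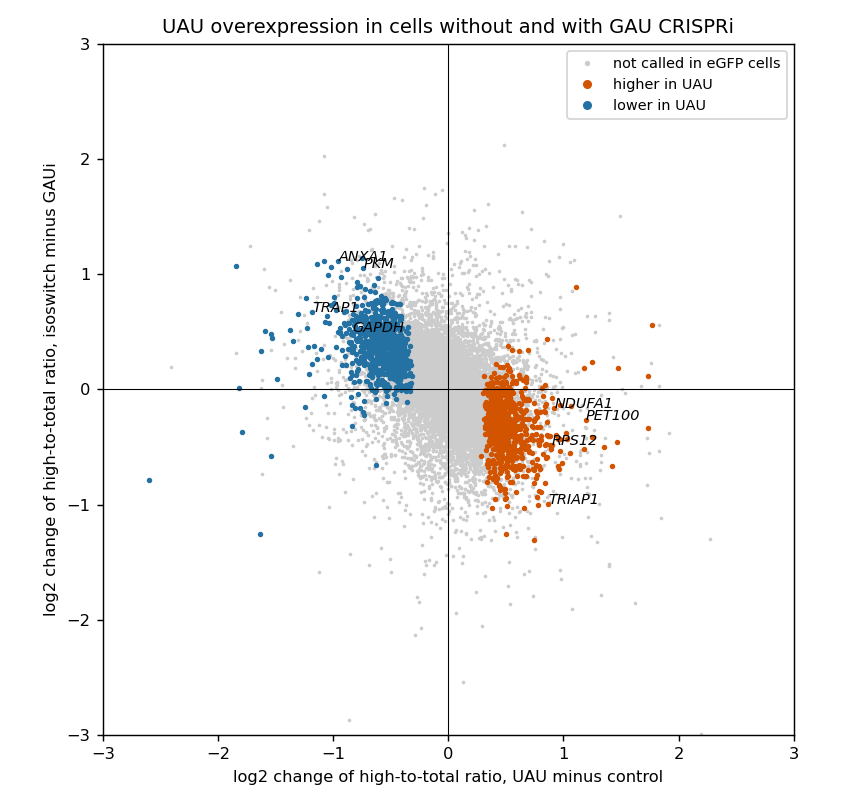
Log2 ratio change of 12070 genes for UAU minus control (horizontal) and isoswitch minus GAUi (vertical), with genes called higher in UAU in orange and lower in blue; 2 genes lie outside the axes. Most called genes lie in the upper left and lower right parts of the plot, 1348 of 1445 with opposite signs.

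The levels behind this stood as follows. The median log2 high-to-total ratio of glycolytic enzymes was -0.854 in UAU cells and -0.328 in control cells, and -0.228 in isoswitch cells and -0.901 in GAUi cells. For small ribosomal subunit proteins it was 0.507 in UAU and 0.297 in control cells, and 0.228 in isoswitch and 0.444 in GAUi cells. For Sm and LSm proteins it was 0.441 in UAU and 0.143 in control cells, and 0.0356 in isoswitch and 0.236 in GAUi cells. In these 3 lists the median of UAU cells and that of GAUi cells lay on the same side of both other lines. The same held in each of the 36 gene lists except the translocon, ATF4 pathway, interferon response, S100 and annexin, matrix and zinc finger lists. The complex I median was 0.784 in UAU and 0.532 in GAUi cells, and 0.439 in control and 0.419 in isoswitch cells. The S100 and annexin median was 0.683 in UAU and 0.0612 in GAUi cells, and 0.199 in control and 0.136 in isoswitch cells. These positions were not tested against the spread between libraries.

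**Figure D4:**
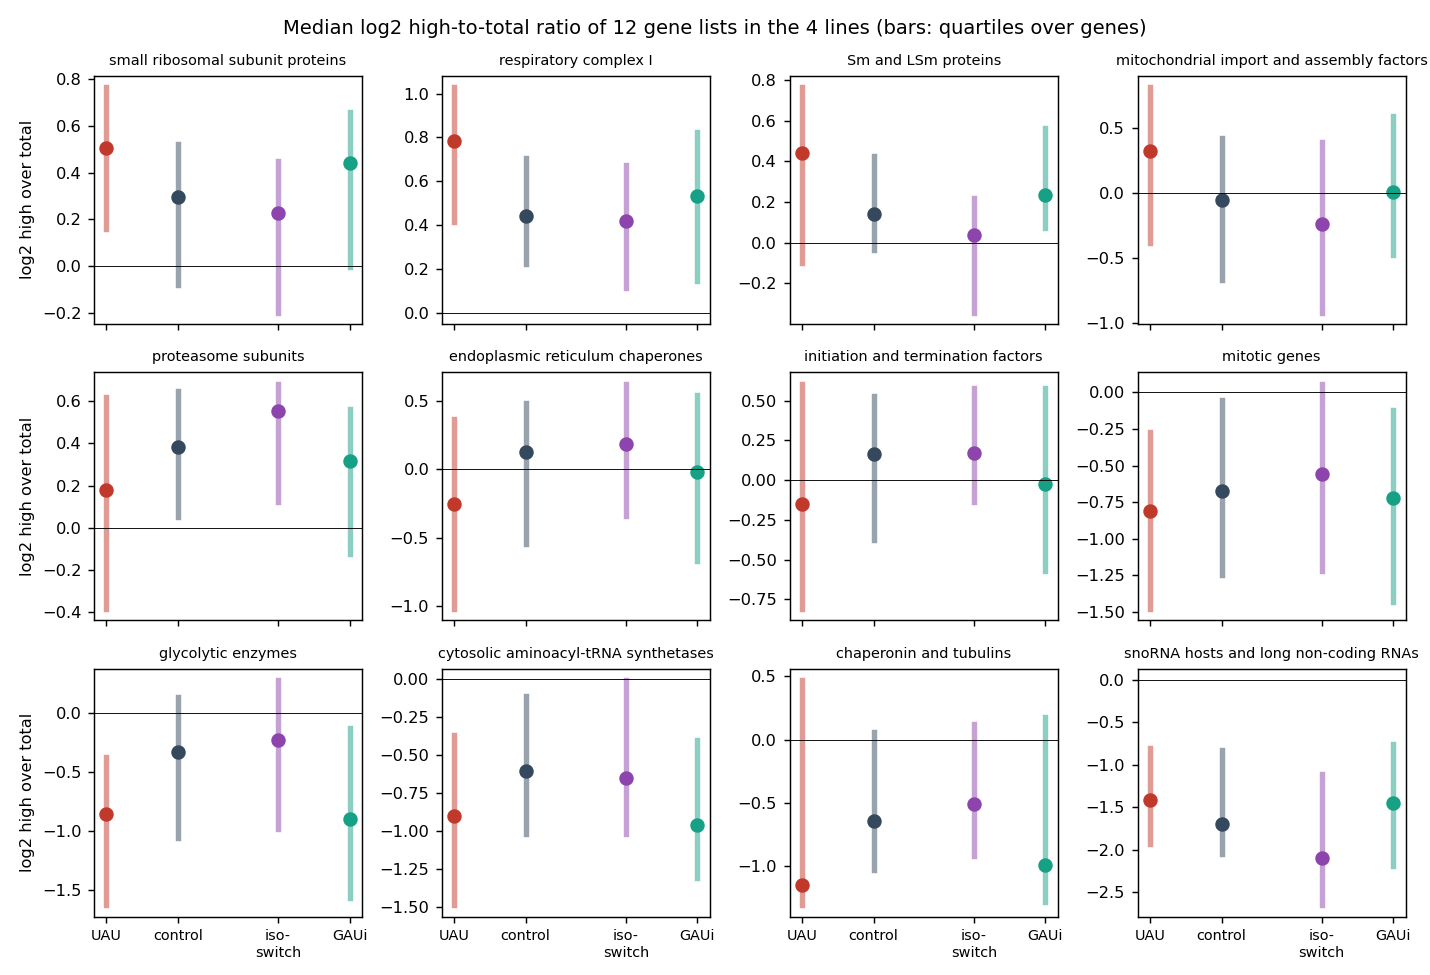
Median log2 high-to-total ratio of 12 gene lists in UAU, control, isoswitch and GAUi cells, with bars for the quartiles over genes. Glycolytic enzymes lie at -0.854 in UAU and -0.328 in control cells, and at -0.228 in isoswitch and -0.901 in GAUi cells.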

How the data were processed

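Raw counts per gene symbol were deposited for each library, with no normalization. Per the submitters' processing notes the tools were STAR, featureCounts and DESeq2 with the genome build hg38; their versions, the annotation and the strand setting: not given in the sources used here. The files list 26485 symbols, of which 21325 had a count; 12277 passed edgeR's filterByExpr and were tested, and 11331 of these matched a RefSeq symbol of GRCh38.p14, from which positions and start windows came. The 12 libraries were fitted together by edgeR's quasi-likelihood method (version 4.0.16 under R 4.3.3) with TMM factors and Benjamini-Hochberg adjustment over all genes tested, called under 0.05. SE was derived from the log2 change and the F statistic. No molecular identifiers were used, so tests rest on the spread between libraries.

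On simulated data the test was checked for the sign and size of known changes. The labels name no pairing by replicate letter, so no block was used in the main fit. Same-letter libraries correlated at -0.16 to 0.15 over 18 pairs, which does not show that the samples were unpaired. Named genes were the 12 highest and 12 lowest called changes among genes averaging 4 or more in log2 CPM whose libraries did not overlap, up to 4 called members of each list by p, 4 genes set by plan, and 4 in each direction in GAUi cells and for the difference of backgrounds; further list members named were chosen after their values were seen. The members and lists were chosen with earlier results of these data known. DESeq2 1.42.0, other scalings, filters, blocks, fits and leaving out each library were the alternatives. 1 of the ranked genes is not reported here. Protein length, isoleucine content and AUA codon share were planned and not analysed here.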

Additional observations from a re-analysis of the deposited data

Results flagged for a closer look

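The ratio change between the line with UAU overexpression and its control line differed between eGFP and GAU CRISPR interference backgrounds in 2411 genes. This is from edgeR's quasi-likelihood test of the difference over 24 libraries, at an adjusted p under 0.05. Each condition was a single line, so the tRNA and other differences between lines or gradients cannot be told apart. Differences below are log2 ratio changes in eGFP cells minus those in GAUi cells. The genes below, except S100A4, were chosen for their ratio change in eGFP cells, which is itself part of the difference. S100A4 was set by plan. Only genes also called for the difference are listed, so their values are a description and no separate support for it.

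Among those that rose in eGFP cells, the difference was 1.85 for GDF9, 1.45 for PET100, 1.46 for DYNLL2, 1.62 for SNRPG and 1.65 for DPY30. It was 1.38 for SNHG19, 1.61 for SMIM4, 1.32 for TMEM186, 1.08 for NDUFA1, 1.38 for RPS12, 1.36 for ATP5I and 1.27 for COX6C. Among those that fell, it was -1.86 for TRAP1, -1.66 for CAP2, -2.04 for ANXA2P3, -1.61 for DSG2, -1.75 for ALDH6A1 and -1.80 for DNASE1. It was -1.67 for MDH1, -2.07 for ANXA1, -1.48 for DRG2, -1.44 for CPNE8 and -1.27 for ABCD3. S100A4 gave 1.33.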

How the results depend on the processing

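The 24 ranked genes kept their direction and call under every alternative run. They had been chosen as the largest called changes with libraries that did not overlap. A kept direction was therefore largely set by that choice and is no separate support. Of 157 named genes, 116 kept direction and call. The ratio change gave 918 called genes in the 24-library fit and 931 to 2278 with a library left out. As a replicate block, the letters gave 1504 and line with letter 1343; the block gave 215 for isoswitch minus GAUi, where DESeq2 gave 683, no filter 716 and leaving out a library 0 to 1464. Total RNA gave 916 in the fit of its own 6 libraries and 106 to 838 with a library left out. The low-to-total ratio gave 9 in DESeq2, 45 with no filter and 0 to 14 with a library left out. No count of the high fraction or of the difference of backgrounds moved by over 1.5 times.

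With library totals in place of TMM factors, the share of higher calls was 17.6% against 49.1% for the ratio, 31.3% against 45.1% for the high fraction, 58.9% against 30.1% for total RNA and 76.3% against 55.2% for isoswitch minus GAUi. The difference of backgrounds then had 612 higher and 2039 lower.

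Counts of rises or falls in a gene list, under each alternative, moved by over 1.5 times in 330 cases and did not in 1110. Beyond the values in the report, leaving out 1 library gave 14 to 25 rises among mitochondrial ribosomal proteins, 8 to 16 among import factors and 6 to 13 among Sm and LSm proteins. It gave 5 to 9 falls among endoplasmic reticulum chaperones, 3 to 9 among mesenchymal genes, 2 to 10 among actin genes and 1 to 6 among cholesterol genes. Library totals gave 11 rises among large ribosomal subunit proteins and 5 among Sm and LSm proteins, and 23 falls among proteasome subunits, 12 among endoplasmic reticulum chaperones, 9 among heat shock genes, 8 among mesenchymal genes and 6 among cholesterol genes.

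Direction reversed for 4 named genes, none of them called for the ratio change. With library totals COL1A1 gave -0.03 (-0.0294), INSIG1 -0.0145, PLCG1-AS1 -0.0744 and TERC -0.0606, against 0.0895, 0.103, 0.0478 and 0.0625. With a library left out COL1A1 ran from -0.495 to 0.573, PLCG1-AS1 from -0.0229 to 0.128 and TERC from -0.0974 to 0.271. The cause was not tested. With 3 libraries a group, a p that misses the threshold does not show that ratios were alike.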
